A study of Mus musculus with 12 samples.

Results

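Ribosomal protein genes encode the proteins of the cytosolic ribosome, and 50 of the 18193 genes that the mouse array measured with a probe set of a single gene symbol belonged to this group. They were chosen by name: symbols starting with Rpl or Rps followed by a digit, together with Rplp0, Rplp2 and Rpsa, without pseudogenes and without the S6 kinases. Each gene was represented by its probe set with the highest mean over the 12 arrays, so no comparison between groups entered the choice. By role, 20 members encode proteins of the large subunit, 2 proteins of the ribosomal stalk and 21 proteins of the small subunit. A further 6 are paralogs of such genes, and 1, Rps19bp1, encodes a protein that binds Rps19 and is not itself a ribosomal protein.

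The study measured gene expression in endothelial cells cultured from newborn wild-type mice, in 3 groups of 4 arrays. The tmTNF cells were stably transfected with a mutant of murine tumour necrosis factor that cannot be cleaved and stays in the membrane, which gives chronic exposure. The soluble TNF cells received the free cytokine at 20 ng/ml for 4 h, which gives acute exposure. The control cells were mock-transfected. All cells were grown in DMEM with foetal calf serum, and about 5 µg of total RNA was used per array. The labels do not name the promoter of the transgene, the number of clones, or whether replicates were separate cultures or animals, and they do not state clearly whether the cells given soluble TNF had been mock-transfected. The p-values therefore rest on the spread among these samples alone, and whether it stands for variation between animals is not known. Replicates of a group differed widely in some marker genes, such as Krt19, at 65, 11494, 79 and 5564 on the tmTNF arrays.

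Some arrays stood apart before any ribosomal protein gene was considered. The summed signal of 15 endothelial markers, all detected, ran from 28537 to 144253 on tmTNF arrays, from 38249 to 85700 on soluble TNF arrays and from 15828 to 127959 on control arrays. The lowest sums were those of control replicate 3, tmTNF replicate 2 and tmTNF replicate 4, which also had the highest summed signals of 7 mesothelial markers, at 10689, 14093 and 6969, against 240 to 4478 on the other arrays. Of those 7 markers, Upk3b, Wt1, Lrrn4 and Krt18 stayed under 100 on all arrays. The 10 fibroblast markers summed to 362 to 8497 in tmTNF cells, 238 to 8192 in soluble TNF cells and 355 to 10090 in controls, with Lum, Dpt, Fbln1, Thy1 and Postn under 100 throughout. These sums hold different genes. Dcn read 3276.5 and 7271 on tmTNF replicates 2 and 4 and at most 27.7 outside the tmTNF group. Col3a1 read at most 159 on tmTNF arrays. It read 4119 and 3758 on soluble TNF replicates 1 and 4, and 4547 and 1901 on control replicates 3 and 4. The 8 smooth muscle and pericyte markers summed to 293 to 1822 in tmTNF cells, 921 to 1839 in soluble TNF cells and 215 to 1297 in controls, with Myh11, Cnn1, Rgs5 and Des under 100 throughout. The sum of 1822 on tmTNF replicate 3 was mostly Pdgfrb, at 1337. Acta2 read 101 to 238 in tmTNF cells, 736 to 1668.5 in soluble TNF cells and 98.3 to 1043 in controls. The 9 leukocyte markers summed to 499 to 7321, 449 to 628 and 755 to 18611 in the same order of groups, and 6 of them, Ptprc included, stayed under 100 on all arrays. Transcripts of the Y-linked genes Eif2s3y, Kdm5d and Uty lay between 219 and 1683 on the tmTNF arrays, against at most 25.8 on soluble TNF arrays and 39.5 on control arrays. Where this came from was not tested, and in any comparison with tmTNF it cannot be told apart from the transgene. In these bulk samples, fewer cells of a type and less RNA per cell cannot be told apart either.

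A ribosome consists of a small subunit, which reads the messenger RNA, and a large subunit, which joins amino acids. Ribosomal proteins are made in matched amounts and assembled with ribosomal RNA in the nucleolus. Their messenger RNAs are among the most abundant of a growing cell, and most begin with a C followed by a run of C and T, the terminal oligopyrimidine motif. Through this motif the mTORC1 kinase pathway and the RNA-binding protein Larp1 control how strongly the messages are translated, so much of the regulation of ribosomal proteins does not appear in RNA levels.

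The start sites of some members are given here, to show runs of C and T where they occur, beside the starts of 3 paralogs. Each stretch holds 15 bases before and 15 bases from the RefSeq start of the GRCm38.p6 assembly on, read 5′ to 3′ on the gene's strand, and capitals mark an unbroken run of at least 8 C or T. The first 5 are core ribosomal proteins, and the rest are Rpl14 and 3 paralogs described later. They were chosen with results known, and Rps25 and Rps27, which had larger differences than some of them, are not shown. All 5 core examples have a run, which many core members lack.
Rplp2: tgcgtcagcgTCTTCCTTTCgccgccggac
Rpl35: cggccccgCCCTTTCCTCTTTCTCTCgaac
Rpl38: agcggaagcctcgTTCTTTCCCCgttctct
Rps10: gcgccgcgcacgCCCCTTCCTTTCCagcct
Rps6: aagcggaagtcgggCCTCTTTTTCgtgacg
Rpl14: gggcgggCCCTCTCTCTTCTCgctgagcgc
Rpl22l1: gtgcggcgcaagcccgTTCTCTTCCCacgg
Rps27l: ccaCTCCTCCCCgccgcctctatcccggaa
Rpl7l1: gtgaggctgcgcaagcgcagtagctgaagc
The stretches lie at chr7:141447636-141447665 (plus strand) for Rplp2, chr2:39005117-39005146 (minus) for Rpl35, chr11:114668565-114668594 (plus) for Rpl38, chr17:27635230-27635259 (minus) for Rps10 and chr4:86857353-86857382 (minus) for Rps6. Those of the other genes lie at chr9:120571502-120571531 (plus) for Rpl14, chr3:28805493-28805522 (plus) for Rpl22l1, chr9:66946071-66946100 (plus) for Rps27l and chr17:46782642-46782671 (minus) for Rpl7l1.

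The run of C and T spanned the start in Rplp2, Rpl35, Rpl38, Rps10, Rps6 and Rpl14, with 18 bases in Rpl35 and 14 in Rpl14. In Rpl22l1, a run of 10 bases began after the start. In Rps27l, a run of 9 bases ended before the start shown, which is 1 of 2 RefSeq starts, and at the other start the longest run was 4 bases. In Rpl7l1 the longest run near the start was 2 bases. Short runs are not particular to paralogs: the longest was 2 bases in Rps3 and 3 in Rpl11, Rpl41 and Rps15. RefSeq windows from 250 bases before to 50 after the start were found for 44 of the 50 members. A run of at least 8 C or T reaching within 10 bases of a start was present in 20 of the 44 (45.5%), against 15.8% of 17491 protein-coding genes with such a window. A C followed by at least 4 C or T, from 5 bases before to 10 after a start, was present in 20 (45.5%), against 21.5%. The motif CCGGAAG, the core bound by ETS factors such as GABPA, was present on either strand in 21 members (47.7%), against 12.9% of all windows. AAGATGGC, the core bound by YY1, was present in 4 members (9.09%) against 3.57%, and TATAAA in 6 (13.6%) against 14.8%. These are letter matches and not binding sites. Among members tested, the 20 with a C or T run had a median log2 difference of -0.11 between tmTNF and control, against -0.01 for the 21 without one. For soluble TNF minus control the medians were 0.09 with a run and 0.07 without. For tmTNF minus soluble TNF they were -0.11 with a run and -0.12 without.

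Of the 50 members, 46 passed the filter, which asked for a signal of at least 100 on at least 4 arrays. The signal is the MAS5 intensity, scaled so that every array had the same trimmed mean of 500. The 4 members under the filter were Rps16, a small subunit protein whose single-symbol probe set read 1 to 38, and the paralogs Rpl39l, Rpl3l and Rps4l. Rpl3l, known from striated muscle, and Rpl39l, known from male germ cells, stayed under 100 on every array except tmTNF replicate 3, where Rpl3l read 330. Of the 46 members tested, 36 had a signal of at least 5000 on all 12 arrays, between 6167 and 42425, and the highest signal of any probe set was 48030. The other 10 read between 104 and 4684: Rpl12, Rpl14, Rpl27a, Rpl37, Rpl39, Rps6, Rps25, Rps27, Rpl7l1 and Rps19bp1. This division was made after the values had been seen, and signals of different probe sets do not rank the genes, since each probe set responds on its own scale. Within Rps18, 1 probe set read 1.8 to 50.1 and the representative one 20289 to 29316. Within Rpsa, 1 read 8.7 to 61.1 and the representative one 26688 to 36980. A low reading, as for Rps16 or the 10 dim members, may thus belong to the probe set and not the gene, which was not tested.

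**Figure D1:**
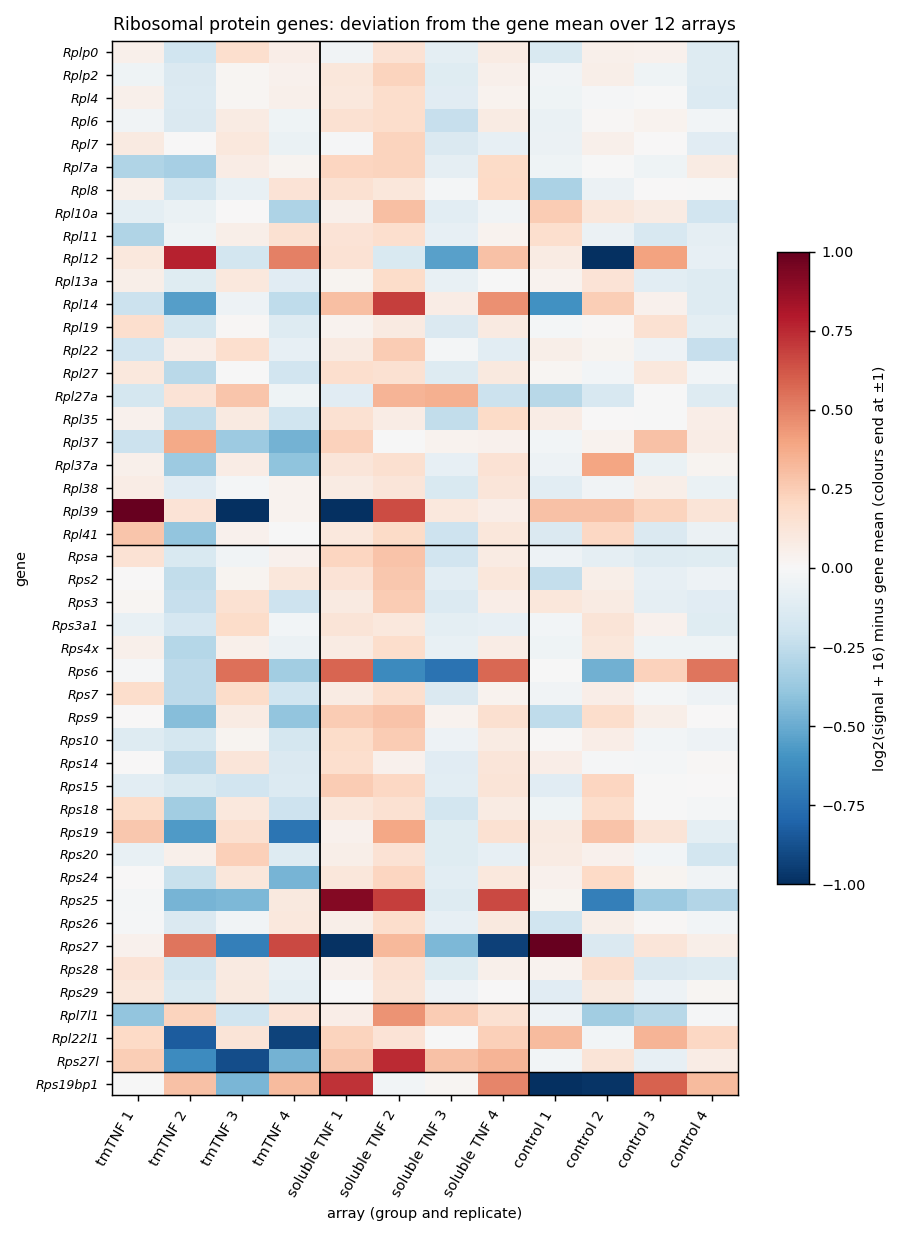
Deviation of each of the 46 ribosomal protein genes (vertical axis, by role) from its own mean over the 12 arrays, in log2(signal + 16), for each array (horizontal axis, 4 tmTNF, 4 soluble TNF, 4 control). Most cells are pale, soluble TNF replicate 3 is the lowest of its group for 38 of 46 genes, and Rps27l is blue in tmTNF replicates 2, 3 and 4.

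On the log2(signal + 16) scale, the median SD of a member was 0.17 in tmTNF, 0.15 in soluble TNF and 0.12 in control cells. Over all 10269 genes tested it was 0.42, 0.29 and 0.50 in the same order of groups, and over the 385 other genes with a signal of at least 5000 on all arrays it was 0.23, 0.16 and 0.27. Those 385 genes are not matched in brightness to the members: the 36 bright members had a median brightness percentile of 99.7, near the top of the array's range. How far the small SD goes with that position was not tested. The steadiest members over the 12 arrays were Rpl38, known in mice for its part in translating Hox messages, the core proteins Rpl4 and Rpl7 of the large subunit, and Rps26 and Rps29 of the small subunit. Rpl4 had signals of 35645, 31234, 34835 and 35726 on the tmTNF arrays, 37086, 38914, 31771 and 35294 on the soluble TNF arrays, and 33470, 34182, 34296 and 31282 on the control arrays. All 3 groups overlapped for Rpl4. The members with the largest SD were Rpl39, Rps27, Rps19bp1, Rpl12 and Rps25, all from the 10 of lower signal.

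The stalk proteins and the proteins with roles outside the ribosome also had small differences. Rplp0, the stalk base that is often used as a reference gene, had 32426, 27192, 35160 and 32728 on the tmTNF arrays, 30555, 34466, 29235 and 33082 on the soluble TNF arrays, and 28150, 32371, 32264 and 28551 on the control arrays. Its differences were 0.07 ± 0.10 for tmTNF minus control and 0.07 ± 0.10 for soluble TNF minus control (log2, SE). The groups overlapped, and the 95% interval of the first difference ran from -0.15 to 0.29. Rplp2, its stalk partner, differed by 0.00 ± 0.09 and 0.10 ± 0.09 in the same comparisons. Rpl13a, which in human monocytes leaves the ribosome after interferon gamma to silence inflammatory messages, differed by -0.00 ± 0.10 and 0.05 ± 0.10. Rpsa, also known as the laminin receptor precursor, differed by 0.10 ± 0.11 and 0.20 ± 0.11.

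Between tmTNF and control cells, 0 of the 46 members passed the test, where 0.195% of all genes did (limma, adjusted p under 0.05 over 10269 genes). At an unadjusted p under 0.05, 0 members were higher, where 4.81% of all genes were, and 1 was lower, where 2.75% were. For 0 members did the arrays of the 2 groups not overlap, a pattern shown by 3.17% of all genes. The median difference of the members was -0.02, beside 0.03 for all genes. By role, the medians were 0.00 for the 22 large subunit and stalk genes and -0.06 for the 20 small subunit genes. In total 20 members had a positive and 26 a negative difference, and 53.2% of all genes were positive. For 33 of the 36 bright members, but 1 of the 10 dim ones, the 95% interval lay within a 1.5-fold change in either direction. It lay within a 2-fold change for 35 of the 36 and 6 of the 10. How far such interval counts, here and in the other comparisons, go with the bright members' place near the top of the array's range was not tested. With arrays scaled to the same median, 43 of the 46 were negative and their median was -0.17, but the median of all genes moved to -0.12 as well. Without control replicate 3 and tmTNF replicates 2 and 4, the 3 arrays of lowest endothelial markers, 34 of the 46 were positive and the median was 0.06, the same as the 0.06 of all genes in that setting.

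**Figure D2:**
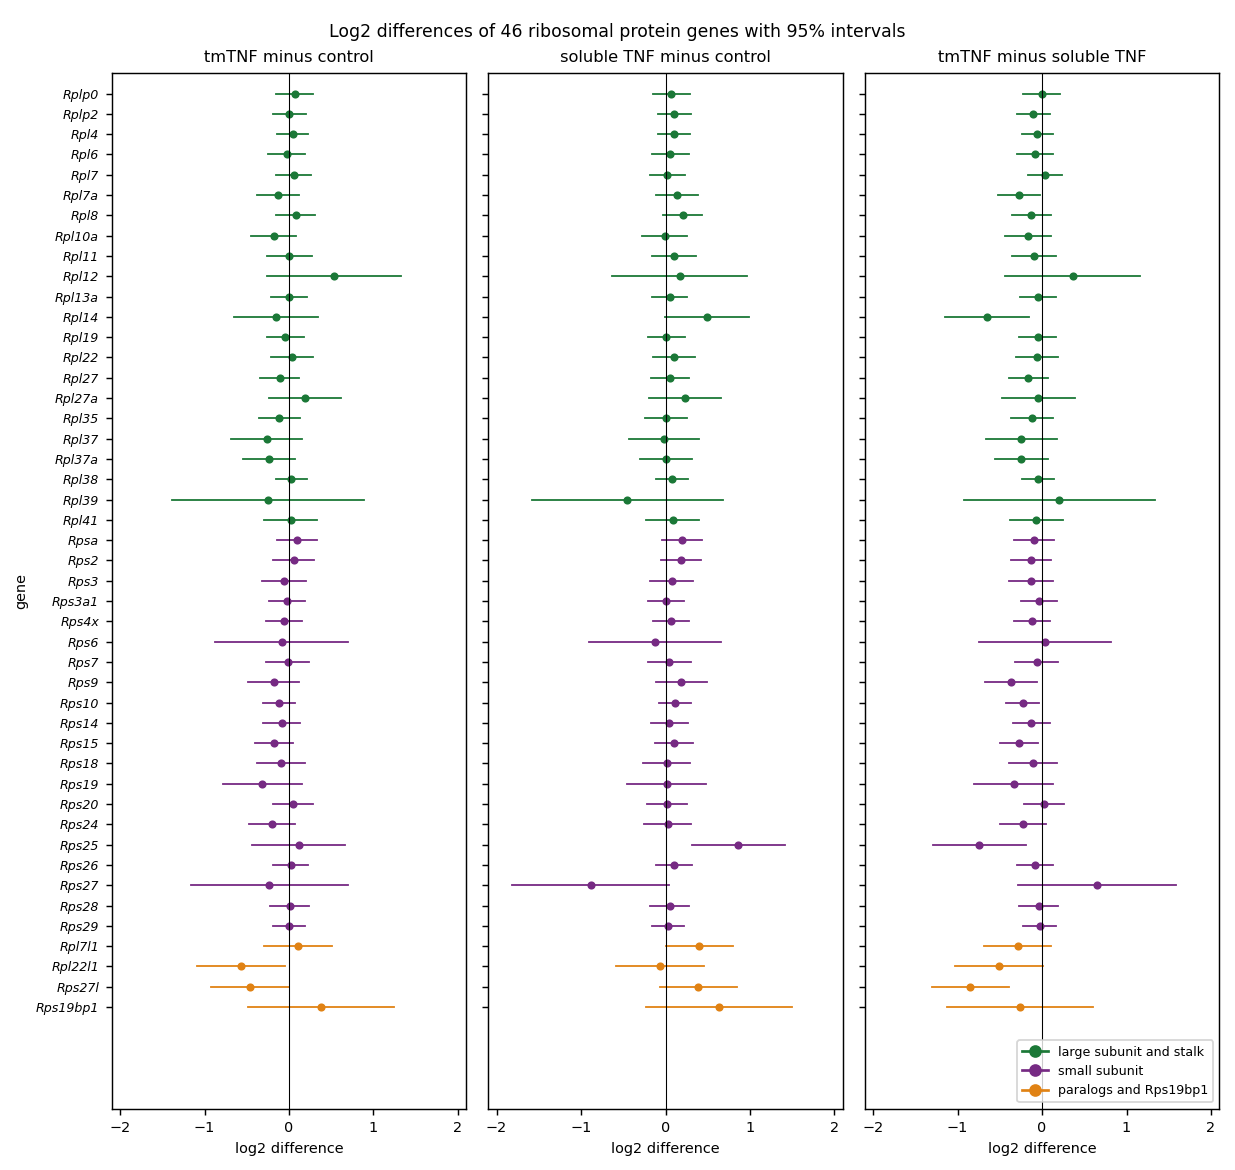
Log2 differences of the 46 ribosomal protein genes (points) with their 95% intervals (lines) in 3 comparisons, coloured by role. The horizontal axis is the difference in log2(signal + 16), and the vertical axis lists genes by role. In tmTNF minus control, 34 of 46 intervals lie within a 1.5-fold change, and Rps27l has the lowest adjusted p of tmTNF minus soluble TNF, 0.071.

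The lowest member by moderated t in tmTNF cells was Rpl22l1, the paralog of Rpl22, which Rpl22 represses in mice. Its signals were 16699, 8138, 15921 and 7634 on the tmTNF arrays, 16930, 15957, 14523 and 17115 on the soluble TNF arrays, and 18066, 14257, 18378 and 16808 on the control arrays. Replicates 2 and 4 of the tmTNF group were low, the other two lay among the controls, and the groups overlapped. The difference from control was -0.57 ± 0.24, with a limma adjusted p of 0.62. Without the same 3 arrays the difference was 0.0007, but that setting leaves out the low tmTNF replicates 2 and 4 themselves. Control replicate 3, the array with the lowest endothelial sum, had the highest Rpl22l1 signal. Whether the cell types present had a part in these values was not tested. Rpl22 itself differed by 0.04 ± 0.11.

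Among the other members far from 0 by moderated t, Rps15, Rps24 and Rpl37a had differences between tmTNF and control of -0.17 ± 0.10, -0.20 ± 0.13 and -0.24 ± 0.14 (adjusted p 0.79, 0.81 and 0.79). Rpl37a, a zinc-finger protein of the large subunit, had 27771, 20788, 28167 and 20256 on the tmTNF arrays, 29166, 29866, 25278 and 29531 on the soluble TNF arrays, and 25856, 35287, 25552 and 27299 on the control arrays. Its low tmTNF arrays were again replicates 2 and 4, and the groups overlapped. At the other end, Rpl12, Rpl27a, Rps19bp1, Rpl8 and Rpsa had differences of 0.53 ± 0.37, 0.19 ± 0.20, 0.37 ± 0.40, 0.08 ± 0.11 and 0.10 ± 0.11. Single arrays moved these values widely. Leaving out 1 array gave 0.16 to 0.75 for Rpl12, 0.11 to 0.27 for Rpl27a, 0.06 to 0.68 for Rps19bp1, 0.0040 to 0.13 for Rpl8 and 0.05 to 0.15 for Rpsa. It gave -0.22 to -0.11 for Rps15, -0.29 to -0.09 for Rps24 and -0.32 to -0.13 for Rpl37a.

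Rps19bp1, the binding partner of Rps19, had 1830, 2253, 1333 and 2284 on the tmTNF arrays, 3032, 1801, 1864 and 2574 on the soluble TNF arrays, and 748, 922, 2767 and 2289 on the control arrays. The controls split into 2 low and 2 high arrays, and all groups overlapped. Rpl12, which forms the base of the stalk with Rplp0, had 547, 877, 443 and 724 on the tmTNF arrays, 561, 454, 342 and 624 on the soluble TNF arrays, and 538, 190, 675 and 476 on the control arrays. Only control replicate 2 lay below the other arrays of Rpl12.

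Rps19, the small subunit protein mutated in Diamond-Blackfan anaemia in humans, had the same low replicates and was singled out after its values were seen. It had 23061, 12890, 21369 and 11477 on the tmTNF arrays, 19725, 24926, 17610 and 21205 on the soluble TNF arrays, and 20359, 23277, 20843 and 17840 on the control arrays. Again replicates 2 and 4 of the tmTNF group were low while replicates 1 and 3 lay among the controls. The difference from control was -0.32 ± 0.21 (adjusted p 0.83).

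Between soluble TNF and control cells, 0 of the 46 members passed, where 0.039% of all genes did. At an unadjusted p under 0.05, 2 members were higher, where 5.4% of all genes were, and 0 were lower, where 7.28% were. The median difference was 0.07, beside -0.05 for all genes, and 40 of the 46 members were positive where 45.8% of all genes were. This sign depended on the scaling: 26 of the 46 were positive after quantile normalization, with a median of 0.01 beside -0.01 for all genes. With arrays aligned on the 385 other bright genes, a setting chosen after seeing the data, the median turned to -0.06. That of all genes moved to -0.18 there, so the members' distance from all genes stayed at 0.11. In the other direction, 43 were positive with a median of 0.16 with arrays scaled to the same median, where all genes had 0.04, and 44 with a median of 0.10 with array weights. The 95% interval lay within a 1.5-fold change for 35 of the 36 bright members and 1 of the 10 dim ones.

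Within groups, the ribosomal protein genes were often highest or lowest on the same array. The median deviation of the 46 members from their 12-array means was 0.03, -0.18, 0.06 and -0.08 on tmTNF arrays, 0.12, 0.18, -0.11 and 0.09 on soluble TNF arrays, and -0.03, 0.05, -0.00 and -0.05 on control arrays. Soluble TNF replicate 3 was the lowest of its group for 38 of the 46 members (82.6%), where it was lowest for 33.5% of all genes. Replicate 2 of the same group was the highest for 32 members (69.6%), where it was highest for 21.4% of all genes. In the tmTNF group, replicate 2 was the lowest for 26 members (56.5%), where it was lowest for 25.3% of all genes. The other 385 bright genes had median deviations of 0.02, -0.14, -0.12 and -0.02 on the tmTNF arrays, 0.11, 0.17, 0.03 and 0.11 on the soluble TNF arrays and of -0.04 to -0.00 on the control arrays. How much of the members' differences goes with the level of whole arrays was not tested beyond the scalings given here.

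**Figure D3:**
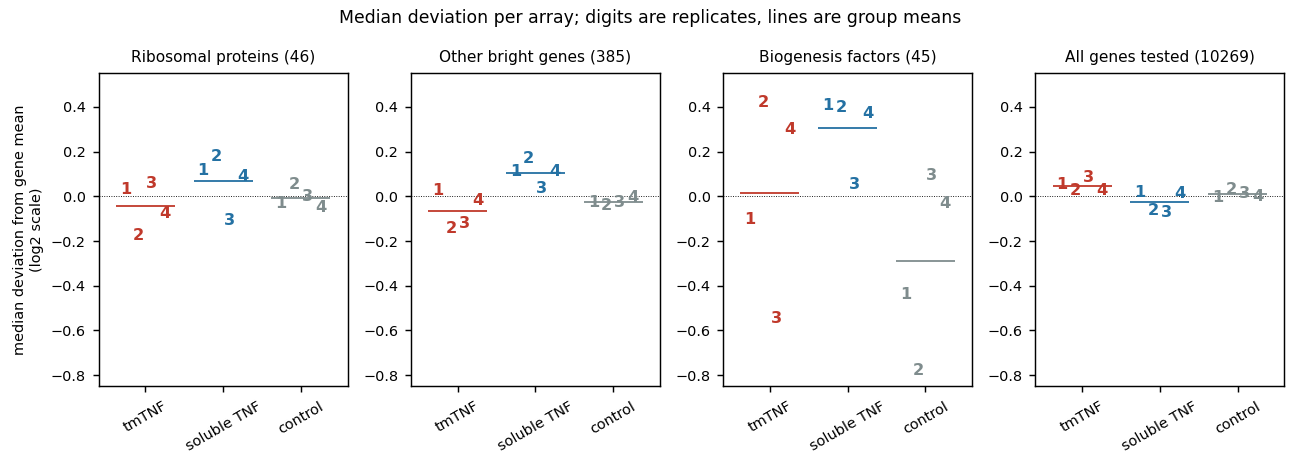
Median deviation from the 12-array gene mean (vertical axis, log2 scale) for each array (digits, replicates 1 to 4) of the tmTNF, soluble TNF and control groups, in 4 sets of genes; lines are group means. The ribosomal protein genes stay between -0.18 and 0.18, while the nucleolar biogenesis factors run from -0.78 to 0.42.

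The highest member by moderated t in soluble TNF cells was Rps25, a small subunit protein needed for translation from viral internal entry sites. It had 2443, 1782, 1806 and 2646 on the tmTNF arrays, 4684, 4001, 2258 and 3923 on the soluble TNF arrays, and 2523, 1536, 1917 and 2019 on the control arrays. Replicates 1, 2 and 4 of the soluble TNF group lay above every control, replicate 3 lay among the controls, and the groups overlapped. The difference was 0.86 ± 0.25, or 1.82-fold, with an adjusted p of 0.26. A single probe set measured Rps25.

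The paralogs Rps27l and Rpl7l1 were the 2 members whose soluble TNF arrays all lay above all control arrays, a pattern shown by 3.67% of all genes. Rpl7l1, a relative of Rpl7, had 1879, 2879, 2144 and 2711 on the tmTNF arrays, 2590, 3376, 2943 and 2754 on the soluble TNF arrays, and 2385, 1942, 2034 and 2455 on the control arrays. The tmTNF arrays overlapped both other groups. Its difference between soluble TNF and control was 0.40 ± 0.18 (adjusted p 0.39). The other probe sets of Rpl7l1 differed by 0.78, with groups that did not overlap, and by 0.30, with groups that did. Between tmTNF and soluble TNF these 2 had opposite signs, -0.66 and 0.44.

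The lowest differences in soluble TNF cells belonged to dim probe sets with wide spread. Rps27, the partner of Rps27l, had 497, 706, 293 and 769 on the tmTNF arrays, 234, 608, 348 and 244 on the soluble TNF arrays, and 1354, 433, 523 and 502 on the control arrays. The difference between soluble TNF and control was -0.88 ± 0.43 (adjusted p 0.42). The groups overlapped, and control replicate 1 stood far above the others. Leaving out 1 array gave -1.17 to -0.52. Rpl39, at the exit tunnel of the large subunit, differed by -0.45 ± 0.52. Rps6, the substrate of the S6 kinases, had 1062, 889, 1572 and 837 on the tmTNF arrays, 1611, 681, 636 and 1597 on the soluble TNF arrays, and 1068, 761, 1256 and 1553 on the control arrays, with a difference of -0.12 ± 0.36. High and low arrays of Rps6 occurred in all 3 groups, and both Rpl39 and Rps6 changed sign when single arrays were left out.

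Between tmTNF and soluble TNF cells, 0 of the 46 members passed, where 1.22% of all genes did. At an unadjusted p under 0.05, 0 members were higher in tmTNF cells, where 12.4% of all genes were, and 7 were lower, where 7.49% were. The median difference was -0.11, beside 0.08 for all genes, and 40 of the 46 members were negative where 44.1% of all genes were. With arrays aligned on the 385 other bright genes the members' median turned to 0.06, but that of all genes moved to 0.25. That alignment shifts all genes of an array by the same amount, so the members' distance from all genes stayed at -0.19. Without the 3 arrays of lowest endothelial markers, 26 of the 46 were negative and the median was -0.02. The 95% interval lay within a 1.5-fold change for 32 of the 36 bright members and 1 of the 10 dim ones. These 3 comparisons share groups, so they do not bear on each other independently.

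The member nearest to the threshold was Rps27l, a paralog of Rps27 that is known as a target of the p53 tumour suppressor. Its signals were 13539, 7376, 6167 and 8242 on the tmTNF arrays, 13780, 19170, 14014 and 14452 on the soluble TNF arrays, and 11198, 12502, 10764 and 12024 on the control arrays. Every tmTNF array lay below every soluble TNF array, tmTNF replicate 1 only narrowly, and Rpl14 was the other member with such groups, a pattern shown by 5.86% of all genes. The difference between tmTNF and soluble TNF was -0.85 ± 0.21, with a 95% interval from -1.31 to -0.39 and an adjusted p of 0.071. Against control the tmTNF cells differed by -0.46 ± 0.21 (adjusted p 0.66), and the soluble TNF cells by 0.39 ± 0.21 (adjusted p 0.47). Without tmTNF replicate 1, the difference between tmTNF and soluble TNF was -1.08 with an adjusted p of 0.0070, in a setting where 198 of the 10269 genes passed instead of 125.

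Rps27l was read by 3 probe sets, and tmTNF replicates 2, 3 and 4 were the lowest arrays on each. Their differences between tmTNF and soluble TNF were -0.85, -0.90 and -0.88, and between soluble TNF and control 0.39, 0.40 and 0.34. On 1 of the 3, tmTNF replicate 1 at 11303 lay above the lowest soluble TNF array at 10982, so those groups overlapped. Within an array, the log2 signal of Rps27l minus that of Rps27 averaged 3.95 ± 0.68 in tmTNF, 5.45 ± 0.42 in soluble TNF and 4.17 ± 0.79 in control cells (SD, n = 4 each), which shows only that the 2 probe sets changed unequally.

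Some other targets of p53 had the same low tmTNF arrays, among them Cdkn1a, Zmat3 and Ccng1. Of the 13 genes of a list of p53 targets and ribosome stress genes, 11 were tested and 0 passed in any comparison. At an unadjusted p under 0.05, 0 were higher and 3 lower in tmTNF minus control, where 4.81% and 2.75% of all genes were. In soluble TNF minus control 1 was higher and 0 lower, where 5.4% and 7.28% of all genes were. In tmTNF minus soluble TNF 2 were higher and 6 lower, where 12.4% and 7.49% of all genes were. The medians of the 11 genes were -0.61, 0.06 and -0.88 in these comparisons, beside 0.03, -0.05 and 0.08 for all genes. Without tmTNF replicate 2 or without control replicate 2 the median of tmTNF minus control was -0.36. The median of soluble TNF minus control was -0.07 with arrays aligned on other bright genes, where all genes moved to -0.18. It was -0.24 without control replicate 4, and 0.20 without control replicate 1. That of tmTNF minus soluble TNF was -0.59 without the 3 arrays of lowest endothelial markers. The list was written with earlier results of these data known. Whether p53 activity had a part in these values or in those of Rps27l was not tested.

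The cell cycle inhibitor Cdkn1a had 8147, 1304, 1237 and 187 on the tmTNF arrays, 5138, 4766, 6110 and 4973 on the soluble TNF arrays, and 8780, 6524, 6789 and 4730 on the control arrays. Its tmTNF replicates 2, 3 and 4 lay below every other array, and replicate 1 lay among the controls. Zmat3, an RNA-binding p53 target, had 1655, 412, 397 and 395 on the tmTNF arrays, 2237, 2568, 2439 and 1955 on the soluble TNF arrays, and 3719, 2115, 1804 and 1563 on the control arrays. Ccng1, which encodes cyclin G1, had 8062, 2114, 1571 and 2019 on the tmTNF arrays, 11535, 10672, 10482 and 9922 on the soluble TNF arrays, and 3979, 5638, 10208 and 4972 on the control arrays. For both genes, as for Cdkn1a, the same 3 tmTNF replicates were the lowest of the 12 arrays. The differences between tmTNF and soluble TNF were -2.03 ± 0.79 for Cdkn1a, -1.96 ± 0.43 for Zmat3 and -1.96 ± 0.44 for Ccng1 (adjusted p 0.19, 0.051 and 0.055). These 3 genes were picked from the 11 after their values were seen. The list did not move as one, since Sesn2 and Tigar had positive differences of 1.22 ± 0.50 and 0.58 ± 0.23 in the same comparison.

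**Figure D4:**
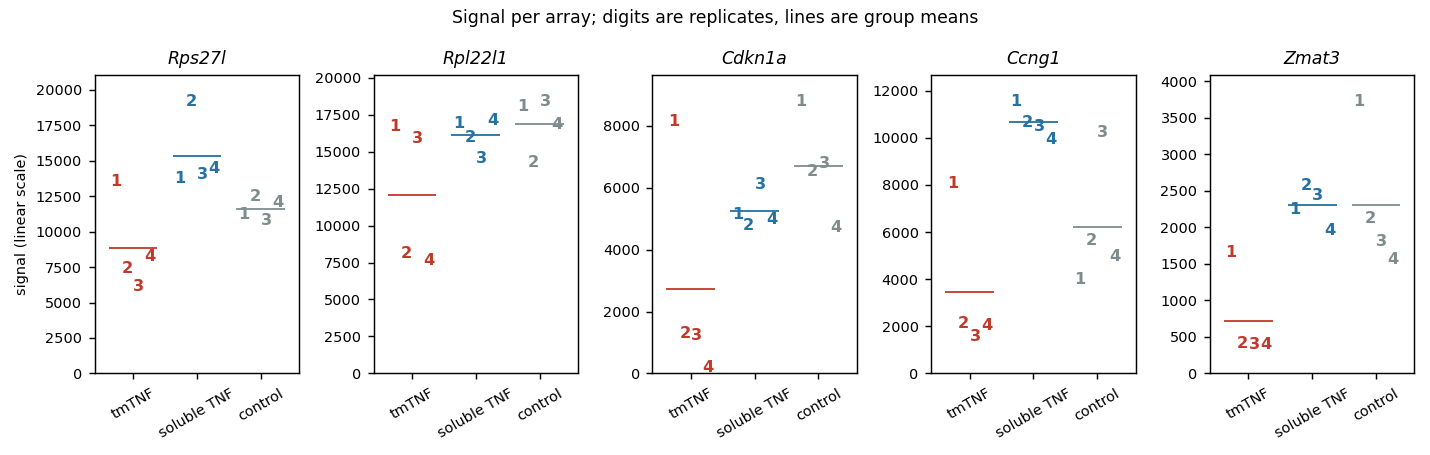
Signal (linear vertical axis from 0) on each array (digits, replicates 1 to 4) of the tmTNF, soluble TNF and control groups for the paralogs Rps27l and Rpl22l1 and the p53 targets Cdkn1a, Ccng1 and Zmat3; lines are group means. Replicates 2, 3 and 4 of tmTNF are the lowest arrays for Rps27l and the p53 targets, and replicates 2 and 4 for Rpl22l1.

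Of the other members that were lower in tmTNF than in soluble TNF cells at an unadjusted p under 0.05, Rpl14 and Rps25 were dim and Rps9, Rps10, Rps15 and Rpl7a bright. Rpl7a, not among the members named by rule, is given for completeness, with a difference of -0.27 ± 0.11. Rpl14 had 522, 410, 585 and 505 in tmTNF cells, against 753, 991, 640 and 838 in soluble TNF cells and 394, 725, 625 and 553 in control cells. The tmTNF arrays all lay below the soluble TNF arrays and overlapped the controls, and the difference from soluble TNF was -0.65 ± 0.23 (adjusted p 0.15). Rps9, a small subunit protein, had 21469, 15881, 22586 and 16286 in tmTNF cells, against 25506, 26130, 21956 and 23902 in soluble TNF cells and 17968, 24179, 22308 and 21500 in control cells. The tmTNF and soluble TNF groups overlapped for Rps9, with a difference of -0.37 ± 0.14 (adjusted p 0.18).

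Several probe sets of the same gene were available for 24 members, and they showed where a reading was firm. Of the 20 genes with more than 1 probe set above the filter, 8 had differences of opposite sign between tmTNF and soluble TNF, 10 between tmTNF and control and 9 between soluble TNF and control. Rps10, a small subunit protein, was the only member whose probe sets spanned more than 1 log2 unit between tmTNF and control. Its representative probe set had 27559, 26708, 30715 and 26706 on the tmTNF arrays, 34236, 35974, 29149 and 31914 on the soluble TNF arrays, and 30500, 31658, 29703 and 29087 on the control arrays, a difference of -0.23 ± 0.09 between tmTNF and soluble TNF. Another Rps10 probe set had 6694, 18002, 6338 and 4317 in tmTNF cells, against 22481, 22525, 18446 and 19760 in soluble TNF cells and 20415, 16764, 19258 and 14802 in control cells. On it, tmTNF replicates 1, 3 and 4 were far below every other array, and the difference from soluble TNF was -1.45. The remaining Rps10 probe sets above the filter had differences of -0.16, -0.35 and -0.20, so the low reading stood alone among 5. Between tmTNF and soluble TNF, the probe sets of Rpl7l1 and Rpl37a also spanned more than 1 log2 unit, as those of Rps10 did with 1.29. Of the 106 probe sets of the members, 40 carried the suffix of probes that also match other transcripts. Ribosomal protein genes have many processed pseudogenes, and reads of such copies cannot be told apart from the gene here.

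Genes that build ribosomes had larger spread and larger differences than the ribosomal proteins. The 2 lists were not matched in brightness, and 36 of the 46 ribosomal proteins lay near the top of the array's range. How far the contrast between the lists goes with that position was not tested. Their median within-group SD was 0.43, against 0.15 for the ribosomal proteins and 0.45 for all genes tested. Of 45 nucleolar biogenesis factors tested, 0 passed between tmTNF and control or between soluble TNF and control, and 1, Fbl, passed between tmTNF and soluble TNF. At an unadjusted p under 0.05, 20 of the 45 were higher and 0 lower in soluble TNF than in control cells. Of all genes, 5.4% were higher and 7.28% lower there. In tmTNF against control cells 2 of the 45 were higher and 0 lower, where 4.81% and 2.75% of all genes were. In tmTNF against soluble TNF cells 0 were higher and 10 lower, where 12.4% and 7.49% of all genes were. In soluble TNF minus control, 42 of the 45 were positive, with a median of 0.56, beside 0.07 for the ribosomal proteins and -0.05 for all genes. The median was 0.28 for tmTNF minus control, and it was -0.38 between tmTNF and soluble TNF. The sign of all 3 medians was the same under quantile normalization, the same-median scaling and the alignment on other bright genes, which gave 0.56, 0.65 and 0.43 for soluble TNF minus control. The sizes of the others moved more. The median of tmTNF minus control was 0.13 with arrays scaled to the same median, 0.11 without tmTNF replicate 2, 0.15 without control replicate 2, 0.47 without tmTNF replicate 3 and 0.12 without the 3 arrays of lowest endothelial markers. That of tmTNF minus soluble TNF was -0.62 with the same median, -0.21 with the alignment, -0.16 without tmTNF replicate 3 and -0.63 without the 3 arrays.

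Markers of other cell types also differed between soluble TNF and control cells, without passing the test. Acta2, a smooth muscle actin, differed by 2.01 ± 0.63 (adjusted p 0.28), and Cd68, a macrophage marker, by -3.09 ± 1.41 (adjusted p 0.39). Between tmTNF and soluble TNF cells, Acta2 differed by -2.81 ± 0.63 (limma adjusted p 0.054). Cd68 read 18210, 520, 2285 and 255 on the control arrays, against 150 to 232 on the soluble TNF arrays. Acta2 was the only 1 of the 8 smooth muscle and pericyte markers above the filter, and Cd68 was 1 of 3 among 9 leukocyte markers, with Lyz2 and Csf1r at 0.20 ± 0.94 and 0.08 ± 0.31. Their part in the values of the biogenesis factors was not tested.

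Fbl encodes fibrillarin, the methyltransferase that modifies ribosomal RNA. It had 6117, 3430, 3728 and 4048 on the tmTNF arrays, 9505, 9078, 7884 and 8748 on the soluble TNF arrays, and 4270, 3641, 3805 and 5684 on the control arrays. All soluble TNF arrays lay above all others, and the tmTNF and control arrays overlapped. Between tmTNF and soluble TNF cells the difference was -1.05 ± 0.20 (adjusted p 0.035), while between tmTNF and control cells it was -0.02 ± 0.20 (adjusted p 0.99). This call was lost, with adjusted p from 0.061 to 0.11, when tmTNF replicate 2, 3 or 4 or any 1 of the soluble TNF arrays was left out, and at 0.0501 without the intensity trend. Without the 3 arrays of lowest endothelial markers the difference was -0.88 (adjusted p 0.10). Its difference between soluble TNF and control was 1.03 ± 0.20 (adjusted p 0.16). Nucleolin, encoded by Ncl, had 12607, 16782, 9523 and 18266 on the tmTNF arrays, 20816, 21775, 19328 and 19121 on the soluble TNF arrays, and 10513, 8629, 12409 and 14196 on the control arrays. The soluble TNF arrays again lay above all others, with a difference of 0.85 ± 0.21 from control (adjusted p 0.21). Npm1, Nop56 and Nop58, next in the list, differed by 0.32 ± 0.14, 0.76 ± 0.46 and 1.08 ± 0.40 between soluble TNF and control (adjusted p 0.38, 0.52 and 0.33).

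**Figure D5:**
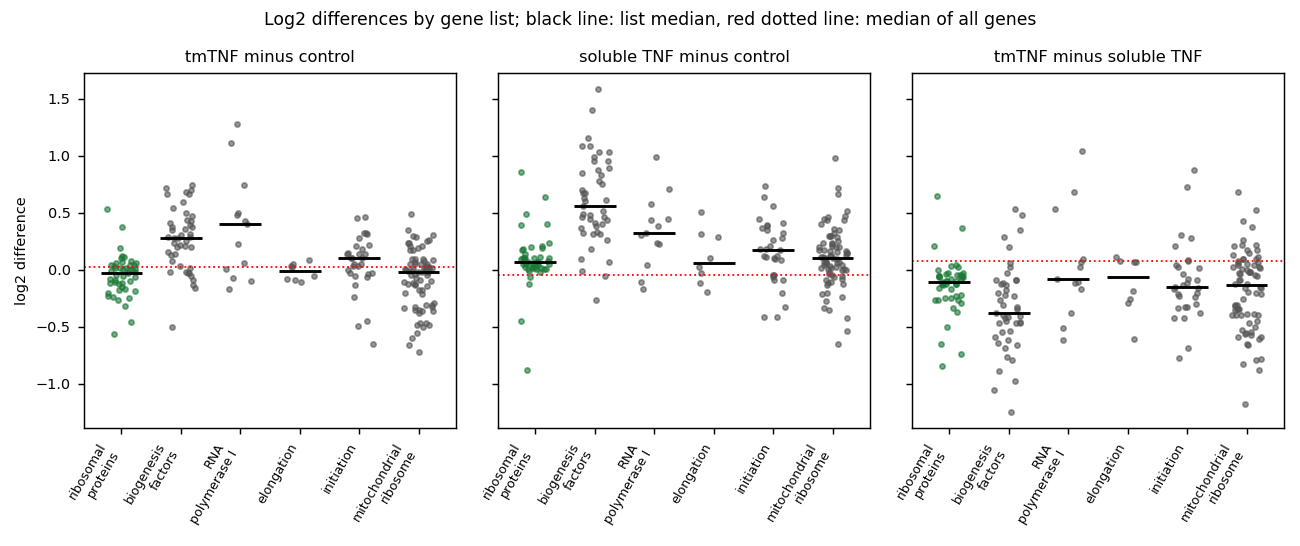
Log2 differences (vertical axis) of single genes (points) in 3 comparisons for ribosomal proteins (46), nucleolar biogenesis factors (45), RNA polymerase I and its factors (13), translation elongation (8) and initiation factors (31) and mitochondrial ribosomal proteins (76); black lines are list medians and the dotted line is the median of all genes. In soluble TNF minus control the biogenesis factors have a median of 0.56 and the ribosomal proteins of 0.07.

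The rest of the translation machinery had smaller medians than the biogenesis factors in soluble TNF minus control. Of 13 genes of RNA polymerase I and its factors, 31 initiation factors, 8 elongation factors, 16 genes of the mTORC1 axis and 76 mitochondrial ribosomal proteins, 0 passed in any comparison. RNA polymerase I genes had medians of 0.40 for tmTNF minus control and 0.33 for soluble TNF minus control. Initiation factors had medians of 0.10 and 0.18, elongation factors of -0.02 and 0.06, mTORC1 genes of 0.02 and -0.05, and mitochondrial ribosomal proteins of -0.02 and 0.10. Fau, which encodes a small subunit protein fused to a ubiquitin-like protein and falls outside the name rule, differed by -0.27 ± 0.14 and 0.00 ± 0.14 in the same comparisons. Of 3 control probe sets for 18S ribosomal RNA, which do not measure these genes, the one for the 5′ end averaged 311 ± 143 in tmTNF, 388 ± 90.0 in soluble TNF and 131 ± 10.7 in control cells (SD, n = 4 each). The one for the middle averaged 598 ± 289, 526 ± 101 and 277 ± 82.8, and the one for the 3′ end 567 ± 123, 523 ± 139 and 374 ± 89.7 in the same order of groups. The contrast with control was thus smaller toward the 3′ end.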

How the data were processed

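Signals were measured on 12 one-colour Affymetrix mouse arrays. The deposited intensity values are linear and were made by the authors with MAS5, per the submitters' processing notes; version and settings are not given in the sources used here, and every deposited array had a 2% trimmed mean of 1000. After 64 control probe sets had been set aside, arrays were brought to a trimmed mean of 500 and transformed to log2(signal + 16), a scale that understates changes of dim genes. Probe sets with 1 platform symbol and a signal of at least 100 on 4 or more arrays were kept, and the brightest probe set represented each gene. A further 110 probe sets naming several genes, at least 1 of them a ribosomal protein gene, were left out, and 31 symbols were found only on those, Rplp1 and Rpl3 among them. One linear model for all 3 groups was fitted by limma 3.58.1 (R 4.3.3, intensity trend, two-sided, Benjamini-Hochberg over 10269 genes, threshold 0.05). It was also tested on simulated data in which genes varied independently, so that test does not cover genes that move together by array. Values after ± are standard errors of log2 differences, or SDs where stated. The number of arrays limits the precision. The members and gene lists were chosen with earlier results of these data known. The text names members by moderated t (5 highest and 5 lowest per comparison), by SD (5 smallest and 5 largest), by groups that do not overlap and from a set of stalk, paralog and regulatory genes, with departures stated where they occur; not every member so named is described for every comparison. Alternatives changed the scaling, the pseudocount (1 or 64), the filter (none or 250), the merging of probe sets, the model settings and the arrays included. Promoter sequences and starts are from RefSeq, GRCm38.p6.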

Additional observations from a re-analysis of the deposited data

Results flagged for a closer look

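In 7 of 117 groups of 4 arrays, 1 array stood apart from the other 3 by more than Dixon's 95% limit, and chance gives about 1 in 20. Soluble TNF replicate 3 was the lowest of its group for Rpl37a (25278) and for Rpl38 (32419), and replicate 2 of the same group was the highest for Rps27l (19170). Among members under the filter, Rpl3l read 330 on tmTNF replicate 3 (329.8) and Rps4l 51.5 on soluble TNF replicate 4. Control replicate 1 was the highest of its group for Rps27 (1354), and control replicate 2 for Rps4x (30411), where the other 3 controls lay within 3 units of each other.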

How the results depend on the processing

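No paired analysis was possible because the labels carry no replicate numbers, and those used here only follow the order of deposit. Giving all arrays one median made the members' median -0.172 for tmTNF minus control, where all genes moved to -0.12. Between tmTNF and soluble TNF it made it -0.341, where all genes moved to -0.15, and 2 members passed, Rps27l at -1.08 and Rps9 at -0.604, among 239 of 10272 genes. Array weights, with which 1176 genes passed there instead of 125 (of 10269), gave 5 members, namely Rps25 at -0.914, Rps27l at -0.83, Rpl14 at -0.668, Rps9 at -0.4, and Rps15. Leaving out 1 array gave 0 to 1 member there, Rps27l without tmTNF replicate 1, and 0 in the other comparisons. With the 21 members that have an unsuffixed probe set, the median was 0.0987 for tmTNF minus control, and 0.195 for soluble TNF minus control. Arrays aligned on other bright genes, chosen after seeing the data, gave -0.0618 for soluble TNF minus control, where all genes moved to -0.18. Between tmTNF and soluble TNF they gave 0.065, where all genes moved to 0.25. The cause of these changes was not tested. Leaving out 1 array moved the medians between -0.0772 and 0.012 for tmTNF minus control, between 0.0331 and 0.124 for soluble TNF minus control, and between -0.179 and -0.0635 for the difference of the 2 exposures.

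Genes named by rule changed sign in 28 of 799 values, with 0 of these past the threshold. The other 36 members in each comparison changed sign in 103 of 951 values for tmTNF minus control, 93 of 951 for soluble TNF minus control and 76 of 950 for tmTNF minus soluble TNF, and 1 value passed the threshold, that of Rps15 with array weights. Of the named genes, for tmTNF minus control these were Rpsa (-0.0487) and Rpl8 (-0.0701) with one median for all arrays, and Rpl22l1 (0.000663) without the 3 arrays of low endothelial markers. For soluble TNF minus control they were Rpl22l1 (0.0263) and Rpl37 (0.067) with one median, and Rpl22l1 (0.00962), Rpl37 (0.0114) and Rps6 (0.198) with array weights. Rpl37 was at 0.0469 without the 3 arrays. For tmTNF minus soluble TNF, Rpl39 (-0.0139), Rpl7 (-0.2) and Rps20 (-0.21) turned with one median, Rpl39 (-0.000539) with quantile normalization, and Rpl7 (-0.0695) and Rps20 (-0.401) with the mean over probe sets. Rps20 was at -0.829 with unsuffixed probe sets. Leaving out 1 array moved soluble TNF minus control between -0.743 and 0.0385 for Rpl39, between -0.337 and 0.103 for Rps6 and between -0.0718 and 0.0469 for Rpl37. It moved tmTNF minus soluble TNF between -0.288 and 0.63 for Rpl39, between -0.0129 and 0.111 for Rpl7 and between -0.0475 and 0.0744 for Rps20.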
